A study of Mus musculus with 14 samples.

Results

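The transcriptional changes that IL-33 and loss of Blimp-1 had in common were described in group 2 innate lymphoid cells (ILC2s) of the mouse lung, with the genes that both moved the same way set beside those moved in opposite ways. Members were chosen from the raw counts of 2 separate experiments, joined by gene. A gene entered where its mean level was at least 5 CPM (counts per 1000000 counts of the library) in both experiments, which held for 10022 of the 53278 genes in the tables. It was a member where its log2 fold change was 1 or more in either direction in both experiments, that is at least 2-fold. The rule gave 109 members. Of these, 47 were higher in both, 10 were lower in both, 8 were higher with IL-33 and lower with Blimp-1 loss, and 44 were lower with IL-33 and higher with Blimp-1 loss. The fold changes chose the members, so the values below describe them, and the adjusted p-values given with them show only how precisely each fold was measured.

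ILC2s are tissue-resident lymphocytes without antigen receptors that release type 2 cytokines. IL-33 is an alarmin from damaged epithelium whose receptor, ST2, signals through MyD88 to NF-kB and AP-1, and so switches on cytokine genes. Blimp-1, encoded by Prdm1, is a zinc-finger transcriptional repressor with roles in the effector differentiation of lymphocytes. It binds GAAA-containing sites resembling those of the interferon regulatory factors. Genes that IL-33 and Blimp-1 loss both raise, and genes that the pair move apart, can be read only by joining both experiments.

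In the stimulation experiment, ILC2s from individual female B6 mice were either unstimulated (n = 4) or cultured with 20 ng/mL IL-33 for 24 h (n = 4). The other experiment compared age-matched female mice of the genotypes ControlIL7RaCre (Control, n = 3) and Blimp-1IL7RaCre (Blimp-1-deficient, n = 3), and all of these cells received 20 ng/mL each of IL-33 and IL-25 for 72 h. The published methods add IL-2 to that culture. All cells were sorted from whole lung as live, lineage-, CD90.2+, CD3-. Cre was driven by the Il7r gene in both genotypes, so deletion reached other ILCs, T, B and NK cells of the donors as well. Unstimulated cells were described both as cultured without IL-33 and as ex vivo, and culture and IL-33 therefore cannot be told apart. No mouse or library was shared between the experiments, whose mouse lines, culture times and cytokines differed, and levels set side by side across them come from separately normalized tables.

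Library IL-33 stimulated 3, with 10470125 counts, and library Control 2, in which 7 genes took 76.8% of 13570188 counts, were left out of the fold changes, leaving 12 of 14 libraries. The libraries used held 21939818 to 32849428 counts in the stimulation experiment and 60715362 to 76448945 in the Blimp-1 experiment. Of 12 ILC2 markers, 11 exceeded 1 TPM (transcripts scaled by gene length and library total) in every library used, and their summed level was 6725 to 7229 TPM in unstimulated, 4335 to 4456 in IL-33 stimulated, 5544 to 5633 in Control and 4604 to 4912 in Blimp-1-deficient ILC2s. Prdm1 itself read 95.7 and 93.0 CPM in Control and 18.7, 14.6 and 14.5 without Blimp-1, which on the log2 scale was -2.57 ± 0.11 (SE; edgeR adjusted p = 0.000134). With IL-33 it read 71.5, 77.2 and 53.7 CPM against 89.1, 70.5, 64.6 and 96.0 in unstimulated cells, and the groups overlapped (-0.25 ± 0.16, adjusted p = 0.2). Scaled by library size alone, this fold was -0.42 with an adjusted p of 0.0439. In bulk RNA, fewer cells of a type and less RNA per cell cannot be told apart.

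Most of what Blimp-1 loss moved by 2-fold was also moved by IL-33, but not the reverse. Of the 193 genes at or past the threshold with Blimp-1 loss, 56.5% were members, and of the 1225 genes at or past it with IL-33, 8.90% were. Over all 10022 genes, 12.2% passed with IL-33 and 1.93% with Blimp-1 loss. Among the 158 genes higher with Blimp-1 loss, 47 were higher with IL-33, 44 were lower and 67 were in neither class. Among the 35 lower with Blimp-1 loss, 10 were lower with IL-33, 8 were higher and 17 were in neither. Members moved the same way in 57 cases (52.3%) and in opposite ways in 52 (47.7%), whereas 38.6% of all shared genes had folds of the same sign. Close to the threshold lay Ramp3 (3.67 with IL-33 and 1.00 with Blimp-1 loss) and Gm12250 (1.34 and 1.01) just inside the genes higher in both, and Zfhx2 (1.43 and 0.99) and Mfhas1 (0.97 and 1.15) just outside. Likewise Sytl2 (-1.02 and -1.51) and 1500009L16Rik (-3.46 and -1.06) were inside the genes lower in both, and Map6 (-1.82 and -0.98) and Rps6ka5 (-1.31 and -0.91) outside. Egr3 (1.05 and -1.42) and Csf2rb (1.06 and -1.61) stood inside the genes higher with IL-33 and lower with Blimp-1 loss, with Tnfrsf8 (5.49 and -0.95) and Adarb1 (2.35 and -0.94) outside. For the last class, Col5a1 (-1.62 and 1.00) and Vwa5a (-1.01 and 1.25) were inside and Fhl1 (-1.90 and 0.99) and Rnf157 (-1.52 and 0.99) outside.

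**Figure D1:**
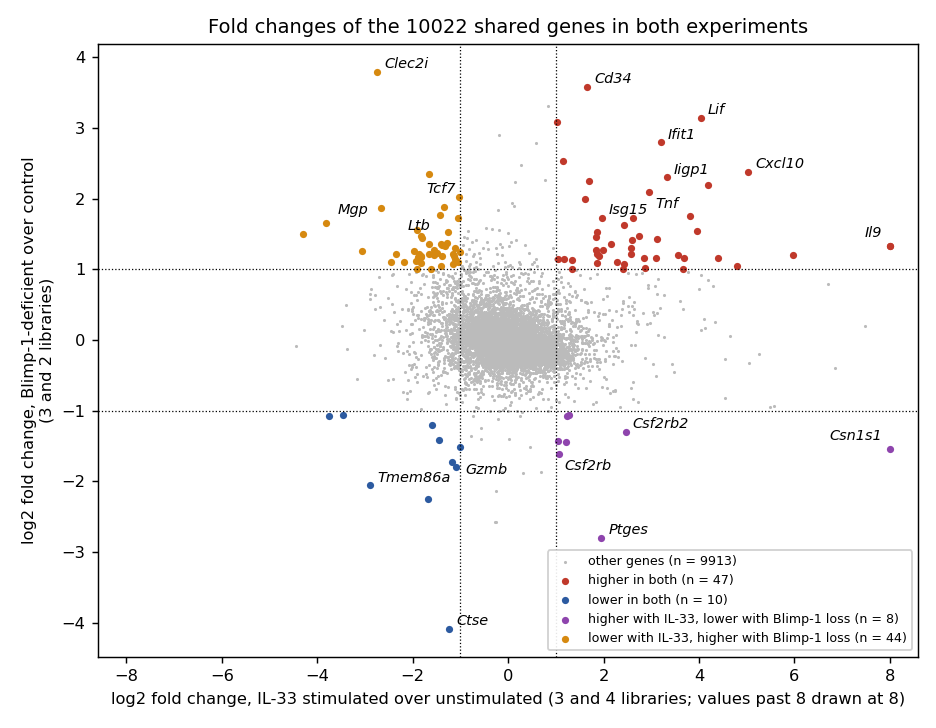
Each point is a gene, with its log2 fold change with IL-33 on the x axis (values past 8 drawn at 8) and with Blimp-1 loss on the y axis; dotted lines mark a log2 fold change of 1 in either direction and colours mark the 4 classes. The corner at upper right holds 47 genes and that at upper left 44, against 10 and 8 in the lower corners.

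Across genes the 2 sets of folds were weakly and inversely related. Pearson's r was -0.084 and Spearman's rho -0.251 over 10022 genes, which are not independent replicates. Without the 109 members r was -0.163 and rho -0.261. For the 1257 genes called in both fits, r was -0.013 and rho -0.121. In genes split evenly by mean level into low, middle and high, rho was -0.281, -0.233 and -0.207. Both folds also ran with gene length, with rho -0.155 for IL-33 and 0.164 for Blimp-1 loss, and with level, with rho 0.145 and -0.150, so the points share these properties. The partial rank correlation given length, level and GC content was -0.194 over 9934 genes. The libraries bore on these values, since r became 0.101 with Control 2 included, -0.026 without Control 1 and -0.134 without Control 3, and rho became -0.034, -0.160 and -0.296.

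The relation was not a straight line. The median log2 fold change with Blimp-1 loss was 0.23 for the 74 genes at -2 or less with IL-33 and 0.15 for the 548 genes between -2 and -1. It was 0.05 for the 1215 genes between -1 and -0.5 and -0.04 for the 6227 genes between -0.5 and 0.5. It was lowest for the 1355 genes between 0.5 and 1, at -0.14, and was -0.09 for the 467 genes between 1 and 2. For the 136 genes at 2 or more with IL-33 it was 0.35, with quartiles of -0.17 and 0.92, and 22.1% of those genes were at least 2-fold higher with Blimp-1 loss. Both tails of the IL-33 response thus had a positive median, and the bins between -0.5 and 2 had a negative one.

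**Figure D2:**
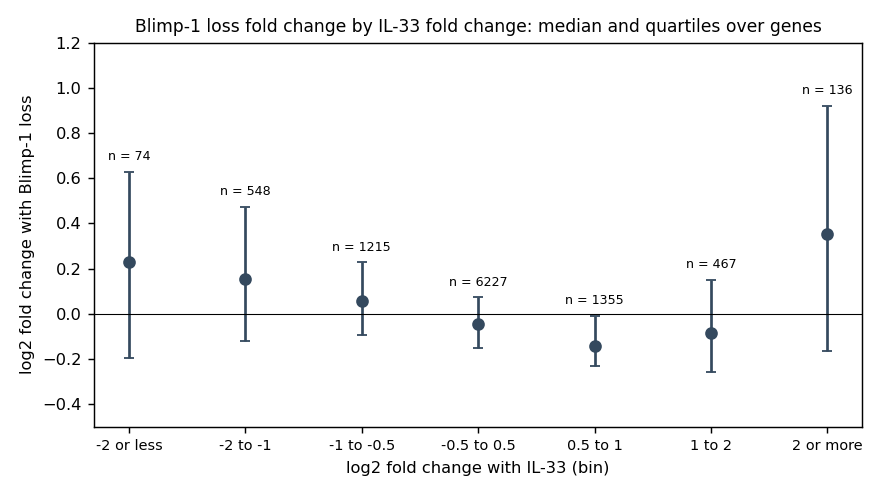
Points are the median log2 fold change with Blimp-1 loss, and bars its quartiles over genes, within 7 bins of the log2 fold change with IL-33. The median was 0.23 in the lowest bin, -0.14 between 0.5 and 1, and 0.35 in the highest bin.

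By edgeR's quasi-likelihood test at an adjusted p below 0.05, 36.6% of the shared genes were higher and 31.3% lower with IL-33, and 8.13% were higher and 8.61% lower with Blimp-1 loss. These shares are the background for the counts of list genes called below. Both folds passed in 41 of the 47 members higher in both, in 9 of the 10 lower in both, in all 8 of the genes higher with IL-33 and lower with Blimp-1 loss, and in 38 of the 44 lower with IL-33 and higher with Blimp-1 loss. Since the size of the fold chose the members, nothing is read from these counts. The libraries of the groups did not overlap in either experiment for 38, 10, 8 and 42 members, in the same order. Over all shared genes, non-overlap was found in 37.4% (higher) and 31.8% (lower) with IL-33 and in 21.1% (higher) and 34.8% (lower) with Blimp-1 loss. In the same order, 19, 5, 2 and 17 members reached 5 CPM in 1 or both experiments only through the group in which they were high.

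Among genes higher in both were the cytokines Lif, Il9, Csf2, Il6 and Il24, the chemokines Cxcl10 and Cxcl5, and the TNF family ligands Tnf, Lta, Tnfsf8 and Tnfsf4. Of 17 shared genes on a list of type 2 and growth-factor cytokines, 15 were called higher with IL-33 and 2 lower, and 6 were called higher with Blimp-1 loss and none lower. The list's median log2 fold change was 3.43 and 0.23, beside 0.04 and -0.04 over all shared genes. Of 25 shared TNF superfamily ligands and receptors, 13 were called higher and 6 lower with IL-33, and 14 higher and 1 lower with Blimp-1 loss, with medians of 0.26 and 0.46.

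Lif, a cytokine of the IL-6 family, had the largest value for the smaller of its 2 folds. It read 26.2, 19.9, 29.0 and 21.3 CPM in unstimulated and 395, 428 and 355 in IL-33 stimulated ILC2s. In the other experiment it read 209 and 150.3 CPM in Control and 1496, 1535 and 1734 in Blimp-1-deficient ILC2s. All stimulated libraries stood above all unstimulated ones, and all Blimp-1-deficient libraries above both Controls. Lif rose by 4.03 ± 0.13 with IL-33 (adjusted p = 2.01e-08) and by 3.14 ± 0.16 with Blimp-1 loss (adjusted p = 0.000241) on the log2 scale.

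Il9, which encodes a mast cell and lymphocyte growth factor, was at 0.0697, 0, 0 and 0 CPM in unstimulated ILC2s, where no library had more than 3 counts. With IL-33 it reached 3439.8, 3968 and 5332 CPM, at least 33363-fold higher when set against the level of 3 counts per library. In the 72 h cultures it rose without Blimp-1, from 806 and 573 CPM to 1570.3, 1553 and 2062 (1.33 ± 0.18, adjusted p = 0.00568). Csf2, which encodes the myeloid growth factor GM-CSF, went from 32.5, 32.8, 33.6 and 37.5 CPM to 1837, 2029 and 2584 with IL-33 (5.98 ± 0.13, adjusted p = 2.92e-09). Without Blimp-1 it went from 259 and 218 to 483, 527 and 641 CPM (1.21 ± 0.14, adjusted p = 0.00286). For both genes the groups did not overlap in either experiment. An antisense gene model, Gm12223, covers 12% of the exon bases of Csf2, and the strand of counting is not given in the sources used here. Per length, on the deposited TPM scale, the mean levels in IL-33 stimulated ILC2s were 21977 ± 4047 for Il9, 7467 ± 1007 for Csf2 and 253 ± 31.8 for Lif (SD, n = 3). In Blimp-1-deficient ILC2s they were 10172 ± 1543, 2168 ± 264 and 1152 ± 75.4 (SD, n = 3). Csf2 stood above Lif in both groups, with the gap smaller in the deficient cells.

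Il6, a pleiotropic inflammatory cytokine, rose by 4.80 ± 0.31 with IL-33 and by 1.05 ± 0.11 with Blimp-1 loss (adjusted p = 8.91e-07 and 0.00245). Its levels were 14.6 and 15.2 CPM in Control and 26.98, 31.2 and 34.4 in Blimp-1-deficient ILC2s. Il24, an IL-10 family cytokine, rose with IL-33 from 0.209, 0, 0 and 0.0631 CPM to 44.5, 30.9 and 46.8 (adjusted p = 7.00e-08). Its fold with Blimp-1 loss, 1.33 ± 0.44, did not pass (adjusted p = 0.091), and one deficient library, at 129.8 CPM, stood above the other two at 55.9 and 51.9.

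The TNF family ligands differed in their spread. Tnf, the inflammatory cytokine itself, read 9.79, 12.2, 11.2 and 11.6 CPM in unstimulated and 77.8, 80.3 and 100.3 in IL-33 stimulated ILC2s. It read 24.4 and 24.7 CPM in Control and 105, 107 and 102 in Blimp-1-deficient ILC2s. These groups lay apart in both experiments, with rises of 2.94 ± 0.11 (adjusted p = 3.43e-08) and 2.09 ± 0.06 (adjusted p = 2.79e-05). Lta, its neighbour, encodes lymphotoxin alpha and rose by 2.62 ± 0.13 and 1.73 ± 0.13 (adjusted p = 1.61e-07 and 0.000939). Tnfsf8, the ligand of CD30, went from 3.20, 3.01, 4.98 and 3.79 CPM to 64.7, 49.0 and 90.5 with IL-33 and from 93.4 and 57.2 to 373, 282 and 377 without Blimp-1. Its rises were 4.20 ± 0.23 and 2.19 ± 0.23 (adjusted p = 2.92e-07 and 0.00232). Tnfrsf8, which encodes CD30, the receptor of Tnfsf8, lay just outside the opposite class (5.49 and -0.95). Tnfsf4, the OX40 ligand with which ILC2s costimulate T cells, rose by 1.99 ± 0.09 and 1.28 ± 0.32 (adjusted p = 8.49e-08 and 0.0411). Its Controls, 24.2 and 9.85 CPM, differed from each other more than its deficient libraries, 42.6, 41.8 and 39.3. Its Blimp-1 call was lost without any 1 of the deficient libraries (adjusted p = 0.0857, 0.0852 and 0.0781), and the fold was 2.06 without Control 1 and 0.76 without Control 3.

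The third member of the lymphotoxin locus moved otherwise. Ltb, which anchors lymphotoxin at the cell surface, lies at chr17:35194439-35196320 (GRCm38, GENCODE M21), 3060 bases from Tnf (chr17:35199381-35202007), which lies 1157 bases from Lta (chr17:35203165-35205351). Ltb read 74.0, 75.5, 80.4 and 48.3 CPM in unstimulated and 23.3, 26.6 and 28.1 in IL-33 stimulated ILC2s. It read 19.6 and 18.5 CPM in Control and 75.9, 64.2 and 54.5 in Blimp-1-deficient ILC2s. Every stimulated library was below every unstimulated one, and every deficient library above both Controls, so Ltb fell with IL-33 (-1.42 ± 0.16, adjusted p = 4.29e-05) and rose with Blimp-1 loss (1.77 ± 0.14, adjusted p = 0.0012). Tnf, Lta and Ltb all rose without Blimp-1, while with IL-33 Ltb went against its neighbours.

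Interferon-inducible genes formed another group of the genes higher in both, and here the replicates differed. Ifit1, Isg15, Iigp1, Gbp2, Gbp5, Usp18 and Cmpk2 are members from a list of interferon-stimulated genes. Of the 50 shared genes on that list, 10 were called higher and 2 lower with IL-33, with a median log2 fold change of 0.19. With Blimp-1 loss 36 were called higher and none lower, with a median of 0.76. Among all shared genes, 36.6% were called higher and 31.3% lower with IL-33, and 8.13% and 8.61% with Blimp-1 loss. Isg15, a ubiquitin-like antiviral protein, read 4.60, 2.76, 2.98 and 3.66 CPM in unstimulated and 12.1, 27.4 and 1.28 in IL-33 stimulated ILC2s, the lowest of which was below every unstimulated library. It read 3.30 and 2.84 CPM in Control and 12.4, 7.03 and 11.1 in deficient ILC2s, which did not overlap. The same library, IL-33 stimulated 4, was low for Ifit1, an RNA-binding antiviral protein, with IL-33 values of 18.5, 29.9 and 1.07 CPM against 3.07, 1.06, 1.49 and 1.61. Iigp1, an immunity-related GTPase, read 178, 129.9 and 10.98 CPM with IL-33 against 22.2, 3.79, 7.24 and 9.41 in unstimulated cells. For Gbp2, a guanylate-binding protein, the values were 409, 344 and 50.3 against 111, 35.8, 118 and 86.4 CPM. Thus IL-33 stimulated 4 lay within or below the unstimulated range for all 7 of these genes, and the library left out, IL-33 stimulated 3, stood above the unstimulated range for 6 of them, from 376 CPM for Gbp2 to 5.51 for Isg15, and within it for Cmpk2, at 4.13 CPM.

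The IL-33 folds of this group depended on single libraries. Isg15 stood at 1.96 ± 0.68 (adjusted p = 0.0324), at 2.50 without IL-33 stimulated 4 (adjusted p = 0.000141) and at 0.94 without IL-33 stimulated 2 (adjusted p = 0.25). Leaving out IL-33 stimulated 1 or unstimulated 2, 3 or 4 also ended its call, with adjusted p from 0.0551 to 0.0758. For Gbp2 (1.61 ± 0.59, adjusted p = 0.039) the call was lost without any 1 of the libraries other than IL-33 stimulated 4 (adjusted p = 0.0517 to 0.155), and the fold was 2.11 without that one (adjusted p = 0.000973). With IL-33 stimulated 3 included, Isg15 was at 1.72 and Gbp2 at 1.75 and neither passed (adjusted p = 0.121 and 0.0664). Cmpk2 and Usp18 did not pass with IL-33 (1.16 ± 0.70 and 1.01 ± 0.52, adjusted p = 0.186 and 0.122). Without IL-33 stimulated 4 both passed (adjusted p = 0.009 and 0.00224), and without IL-33 stimulated 2 Cmpk2 was at -0.25 and Usp18 at 0.11. Ifit1 rose by 3.20 ± 0.79 and kept its call in each of these fits, with 2.44 without IL-33 stimulated 2 and 3.75 without IL-33 stimulated 4, although limma on log2(TPM + 1) gave 1.81 (adjusted p = 0.0903). Of the distinct 75-base stretches in its transcripts, 5.19% also occur in other genes, most often Ifit1bl2, so its counts may be split with that copy.

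With Blimp-1 loss the folds of the interferon-inducible members were 2.80 ± 0.39 for Ifit1, 2.30 ± 0.43 for Iigp1, 1.73 ± 0.25 for Isg15, 1.99 ± 0.33 for Gbp2, 1.35 ± 0.27 for Gbp5, 3.09 ± 0.17 for Usp18 and 2.53 ± 0.28 for Cmpk2. All 7 passed (adjusted p = 0.000281 for Usp18 to 0.0204 for Gbp5). Those of Iigp1 and Gbp5 lost the call without either Control (adjusted p = 0.0513 and 0.0735, and 0.0854 and 0.0932), and that of Gbp2 without Control 3 (adjusted p = 0.0574). Gbp8, another guanylate-binding protein, was the only gene of the list in another class and fell with IL-33 by 1.12 while it rose by 1.15 without Blimp-1 (adjusted p = 0.0129 and 0.0151). Without Control 1 the latter was 1.00 (adjusted p = 0.101), and with IL-33 stimulated 3 included the former was -0.999 (adjusted p = 0.0599). Of the distinct 75-base stretches in its transcripts, 8.04% also occur in other genes, most often Gbp10.

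Cxcl10 encodes an interferon-inducible chemokine that recruits CXCR3+ lymphocytes. It read 1.39, 0.689, 1.58 and 1.80 CPM in unstimulated and 47.8, 65.3 and 18.1 in IL-33 stimulated ILC2s, without overlap. In Control and Blimp-1-deficient ILC2s it read 10.1 and 4.69 and 41.5, 26.6 and 46.9 CPM. The rises were 5.02 ± 0.44 and 2.38 ± 0.36 (adjusted p = 7.46e-06 and 0.00791). Its lowest stimulated library was again IL-33 stimulated 4. Cxcl5, a neutrophil chemokine, rose by 3.13 ± 0.55 and 1.42 ± 0.25 (adjusted p = 0.000872 and 0.0129), the latter not passing without Control 1 (adjusted p = 0.0816) or Control 3 (adjusted p = 0.0584).

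**Figure D3:**
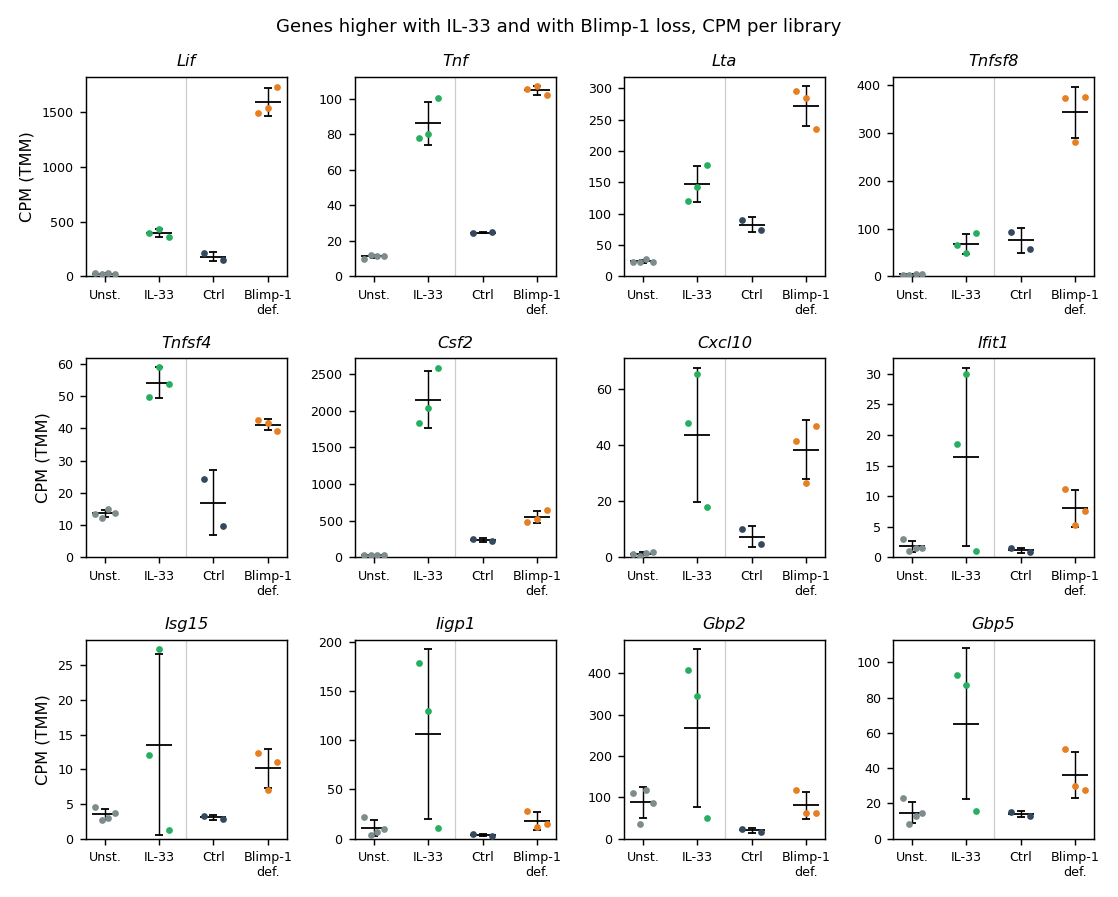
CPM in each of the 12 libraries for 12 genes higher in both, with the mean and SD of each group; the vertical line separates the experiments, which were normalized separately. Blimp-1-deficient values lie above both Controls in every panel. 1 IL-33 stimulated library lies within the unstimulated range for Ifit1, Iigp1, Gbp2 and Gbp5 and below it for Isg15.

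The start-site windows of the members were searched for the letters that these factors are known to bind. The windows run from 250 bases before to 50 bases after a gene's start (RefSeq, GRCm38.p6), and 37 of the 47 genes higher in both had at least 1, with 41 windows in all. The interferon response element core, GAAANNGAAA on either strand, was found in 8 of these 41 windows (19.5%), in 3.44% of all 32851 windows and in 3.09% of those of the shared genes. An AP-1 site, TGANTCA, was found in 12 of 41 (29.3%), against 7.81% and 4.80%. Serpinb2 and Upp1 each have windows that overlap, so an AP-1 site of theirs may be counted more than once. An NF-kB site, GGGNNTTTCC, was found in 3 of 41 (7.32%), against 1.63% and 1.67%. The core of the Blimp-1 consensus, AGNGAAAG, was found in 4 of 41 (9.76%), against 8.63% and 7.62%, and overlapped an interferon element in 2 of them, Gbp2 and Serpinb9. Among the 38 windows of 30 genes lower with IL-33 and higher with Blimp-1 loss, the shares were 2.63% for the interferon element, 10.5% for AP-1, 5.26% for NF-kB and 7.89% for the Blimp-1 core. A match describes letters only, and a window without one says nothing about the factor.

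Shown for the interferon element (in capitals) are Isg15, chr4:156200769-156201068 on the minus strand, with 3 overlapping matches, Cxcl10, chr5:92348840-92349139, minus strand, Gbp2, chr3:142620413-142620712, plus strand, and Serpinb9, chr13:33004291-33004590, plus strand. In Gbp2 and Serpinb9 the capitals hold the element as read on the opposite strand.
Isg15: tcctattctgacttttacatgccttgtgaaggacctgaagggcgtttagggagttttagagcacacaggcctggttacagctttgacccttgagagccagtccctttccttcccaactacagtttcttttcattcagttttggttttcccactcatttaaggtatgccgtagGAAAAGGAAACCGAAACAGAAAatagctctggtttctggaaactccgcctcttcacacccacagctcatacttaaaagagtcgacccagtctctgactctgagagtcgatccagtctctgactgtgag
Cxcl10: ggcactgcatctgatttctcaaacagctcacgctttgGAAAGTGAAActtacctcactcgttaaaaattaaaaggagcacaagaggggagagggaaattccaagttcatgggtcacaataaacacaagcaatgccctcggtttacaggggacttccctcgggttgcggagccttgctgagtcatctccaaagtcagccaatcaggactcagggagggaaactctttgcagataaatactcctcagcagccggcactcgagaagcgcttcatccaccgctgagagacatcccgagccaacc
Gbp2: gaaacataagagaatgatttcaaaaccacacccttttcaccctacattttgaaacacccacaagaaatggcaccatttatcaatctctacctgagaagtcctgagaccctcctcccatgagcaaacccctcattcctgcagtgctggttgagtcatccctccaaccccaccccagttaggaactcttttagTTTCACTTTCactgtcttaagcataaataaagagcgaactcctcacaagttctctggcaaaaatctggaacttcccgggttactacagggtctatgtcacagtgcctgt
Serpinb9: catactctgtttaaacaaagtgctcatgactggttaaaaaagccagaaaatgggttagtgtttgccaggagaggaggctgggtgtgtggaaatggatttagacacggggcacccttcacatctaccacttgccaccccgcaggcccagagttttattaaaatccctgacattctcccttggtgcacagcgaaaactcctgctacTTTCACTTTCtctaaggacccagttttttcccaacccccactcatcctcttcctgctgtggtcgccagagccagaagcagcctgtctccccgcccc

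The windows of Lif, chr11:4257318-4257617, plus strand, with its AP-1 site in capitals, and of Ltb, chr17:35194257-35194556, plus strand, with its NF-kB site in capitals as read on the opposite strand, show a gene that both changes raised and one that they moved apart.
Lif: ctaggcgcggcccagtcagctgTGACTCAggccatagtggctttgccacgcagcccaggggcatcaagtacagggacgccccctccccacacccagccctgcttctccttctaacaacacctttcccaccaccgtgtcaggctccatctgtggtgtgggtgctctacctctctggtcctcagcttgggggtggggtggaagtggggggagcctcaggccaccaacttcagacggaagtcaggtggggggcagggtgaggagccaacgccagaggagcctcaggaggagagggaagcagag
Ltb: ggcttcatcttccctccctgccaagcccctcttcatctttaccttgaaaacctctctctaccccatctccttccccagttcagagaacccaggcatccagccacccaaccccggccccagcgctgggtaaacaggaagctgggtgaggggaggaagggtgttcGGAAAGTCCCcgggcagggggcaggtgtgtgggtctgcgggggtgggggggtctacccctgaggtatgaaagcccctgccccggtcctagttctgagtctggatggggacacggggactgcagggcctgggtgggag

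Serpinb9, an inhibitor of granzyme B, carries the element shown and rose by 1.86 ± 0.14 with IL-33 and 1.53 ± 0.14 with Blimp-1 loss (adjusted p = 2.18e-06 and 0.00167). It read 42.4 and 37.3 CPM in Control and 103, 105 and 138 in deficient ILC2s. Its neighbour Serpinb6b, 24182 bases away on chromosome 13, was also higher in both (1.86 with IL-33 and 1.21 with Blimp-1 loss). Gzmb, which encodes the protease that Serpinb9 inhibits, was lower in both. It read 102, 45.1, 55.0 and 64.6 CPM in unstimulated and 23.4, 36.7 and 33.6 in IL-33 stimulated ILC2s, and fell by 1.09 (adjusted p = 0.00511). Its 172 and 111 CPM in Control and 80.6, 21.0 and 21.1 in deficient ILC2s gave -1.79 ± 0.57, which did not pass (adjusted p = 0.0796) unless Blimp-1-deficient 1 was left out (-2.73, adjusted p = 0.00267). The list of type 1, ILC1 and NK-linked genes, from which Gzmb came, had 4 shared genes. With Blimp-1 loss 3 of them were called higher and none lower, and with IL-33 none higher and 2 lower (medians 0.37 and -0.37).

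Other members higher in both had roles at the cell surface and in metabolism. Cd34, a sialomucin of progenitors and endothelium, read 32.5 and 24.7 CPM in Control and 281, 353 and 396 in deficient ILC2s, the largest rise of these genes with Blimp-1 loss (3.59 ± 0.19, adjusted p = 0.000246). With IL-33 it read 8.92, 14.7 and 21.99 CPM against 3.94, 4.36, 7.198 and 3.95 and rose by 1.65 ± 0.30 (adjusted p = 0.00109). Pecam1, an adhesion molecule of endothelium and leukocytes, rose by 1.05 and 1.15, and Milr1, 597 bases from it on chromosome 11, by 2.73 and 1.47. Cdh5, the endothelial cadherin, was lower with IL-33 (-0.79, adjusted p = 0.0203) and at 0.28 with Blimp-1 loss (adjusted p = 0.455). Cd200, an inhibitory ligand, rose by 2.43 and 1.08, while Cd200r3, a receptor of the same family, fell by 4.30 with IL-33 and rose by 1.496 without Blimp-1. Cd74, the invariant chain of MHC class II, rose by 1.70 ± 0.35 with IL-33 (adjusted p = 0.00203) and by 2.25 ± 0.53 with Blimp-1 loss (adjusted p = 0.0347), with 59.6, 41.5 and 15.4 CPM in the deficient libraries. The latter call was lost without Control 1 or 3 (adjusted p = 0.1248 and 0.139) and without Blimp-1-deficient 1 or 2 (adjusted p = 0.0629 and 0.071).

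Hk2, the hexokinase that starts glycolysis, read 94.4, 81.1, 94.6 and 93.5 CPM in unstimulated and 447, 426 and 443 in stimulated ILC2s. It read 291 and 287 CPM in Control and 615, 619 and 627 in deficient ILC2s. All groups lay apart, and it rose by 2.27 ± 0.06 and 1.10 ± 0.06 (adjusted p = 1.50e-08 and 0.000251). Slc2a6, a glucose transporter, rose by 3.81 ± 0.16 and 1.76 ± 0.19 (adjusted p = 7.18e-08 and 0.00258). Of 30 shared genes on the glycolysis and hypoxia list, Hk2 among them, 25 were called higher with IL-33 (median 1.04), and 3 were called higher and 1 lower with Blimp-1 loss (median 0.01). Pim2, a cytokine-induced survival kinase, rose by 2.57 ± 0.10 and 1.31 ± 0.07 (adjusted p = 4.53e-08 and 0.000285). Sema6d, a transmembrane semaphorin, rose by 3.95 and 1.55, and the collagenase Mmp13 by 2.43 and 1.63, all called in both fits. Mmp3, its neighbour on chromosome 9, and Aldh1a3, a retinoic acid synthesizing enzyme, had folds of 1.14 and 1.14 with Blimp-1 loss that did not pass (adjusted p = 0.205 and 0.0505). The class was completed by Ccdc184, Ntng2, Whrn, Serpinb2, Rab11fip5, Dscaml1, Upp1, Ccdc50, Cpm, Plaur, Edil3 and Cfp, with folds of 1.83 to 4.41 and 1.01 to 1.45. Among these are Plaur, the urokinase receptor, and Cfp, the complement factor properdin.

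Genes of eicosanoid synthesis were spread over 3 classes. Ptgs2, the inducible cyclooxygenase, was higher in both (2.59 ± 0.39 and 1.42 ± 0.23, adjusted p = 0.000311 and 0.0101), with 48.6 and 56.2 CPM in Control and 144, 97.7 and 178 in deficient ILC2s. Without Control 1 the latter fold was 1.31 (adjusted p = 0.0773). Ptges, the synthase that acts after it to make prostaglandin E2, moved in opposite ways. It read 3.94, 2.18, 5.28 and 2.65 CPM in unstimulated and 10.1, 12.1 and 18.1 in stimulated ILC2s, but 101 and 130.3 in Control and 13.4, 17.6 and 18.7 in deficient ILC2s. It rose by 1.95 ± 0.30 with IL-33 and fell by 2.80 ± 0.16 with Blimp-1 loss (adjusted p = 0.000328 and 0.000285). Alox5, the lipoxygenase of leukotriene synthesis, was lower in both. It read 417, 459.6, 410.2 and 383 CPM in unstimulated and 25.4, 32.7 and 34.0 in stimulated ILC2s, and 135 and 140.5 in Control and 56.9, 60.2 and 79.5 in deficient ILC2s. It fell by 3.77 and 1.07 (adjusted p = 1.65e-08 and 0.00425). Of 32 shared genes of lipid synthesis, storage and eicosanoids, 19 were called higher and 8 lower with IL-33, and 3 higher and 13 lower with Blimp-1 loss, with medians of 0.31 and -0.24.

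The 10 genes lower in both were of mixed function. Ctse, an endosomal aspartic protease, had the largest fall with Blimp-1 loss, from 93.0 and 72.2 CPM to 5.07, 4.96 and 4.57 (-4.09 ± 0.12, adjusted p = 2.79e-05). With IL-33 it went from 11.6, 12.1, 13.0 and 11.2 CPM to 4.87, 4.98 and 5.36 (-1.24 ± 0.11, adjusted p = 7.89e-06). Tmem86a, a lysoplasmalogenase, fell by 2.89 and 2.05, Sema5a, a semaphorin, by 1.69 and 2.25, and Gldc, the glycine decarboxylase, by 1.46 and 1.42. Adgrg3, an adhesion receptor, fell by 1.59 and 1.203 (adjusted p = 1.25e-05 and 0.017), with -0.94 without Control 3 (adjusted p = 0.0773). With IL-33 stimulated 3 included, Sema5a was at -0.53 with IL-33 (adjusted p = 0.539). Sytl2, a vesicle docking protein, and 1500009L16Rik were also in the class. Of 21 shared ILC2 identity genes, 5 were called higher and 14 lower with IL-33, and 4 higher and 7 lower with Blimp-1 loss, with medians of -0.39 and -0.04.

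The 8 genes higher with IL-33 and lower with Blimp-1 loss included both forms of the common beta receptor chain. Csf2rb encodes the signalling chain shared by the receptors of GM-CSF, IL-3 and IL-5, and Csf2rb2 its mouse-specific partner for IL-3. Csf2rb read 43.9, 34.4, 27.9 and 55.0 CPM in unstimulated and 92.7, 77.1 and 82.3 in stimulated ILC2s. It read 454 and 445 CPM in Control and 151, 189.8 and 103 in deficient ILC2s, and rose by 1.06 ± 0.19 and fell by 1.61 ± 0.22 (adjusted p = 0.000872 and 0.00502). IL-33 stimulated 3, at 39.9 CPM, lay within the unstimulated range, and with it included the IL-33 fold was 0.86 (adjusted p = 0.0554). Csf2rb2 went from 8.57, 4.68, 4.81 and 7.73 CPM to 40.0, 33.1 and 33.7 with IL-33, and from 94.2 and 106 to 45.3, 45.7 and 31.5 without Blimp-1. Its folds were 2.46 ± 0.20 and -1.29 ± 0.16 (adjusted p = 4.29e-06 and 0.00368). The genes lie 20030 bases apart on chromosome 15. Of the distinct 75-base stretches in their transcripts, 7.15% for Csf2rb and 10.6% for Csf2rb2 also occur in other genes, most often in each other. How reads were divided between them is therefore uncertain. The ligand gene Csf2 was higher in both. Of 37 shared cytokine receptor genes, 10 were called higher and 18 lower with IL-33, and 14 higher and 7 lower with Blimp-1 loss, with medians of -0.10 and 0.29.

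Csn1s1, a milk casein gene, read 0, 0, 0 and 0.126 CPM in unstimulated, 27.8, 35.8 and 36.1 in stimulated, 679 and 640.3 in Control and 168, 306 and 206 in deficient ILC2s. It fell by 1.54 ± 0.22 with Blimp-1 loss (adjusted p = 0.00613), and its IL-33 fold rests on unstimulated libraries that were nearly all at 0. Egr3, an immediate early transcription factor, rose by 1.05 ± 0.16 and fell by 1.42 ± 0.15 (adjusted p = 0.000384 and 0.00252). The others were Ppm1l, a protein phosphatase (1.22 with IL-33 and -1.44 with Blimp-1 loss), Dhx40, an RNA helicase (1.23 and -1.08), and Aqp9, a channel for glycerol (1.28 and -1.06). The groups lay apart in both experiments for all 8. On the TPM scale, where the median IL-33 fold of all shared genes was -0.26 and not 0.04, only 3 of the 8 stayed past the threshold.

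**Figure D4:**
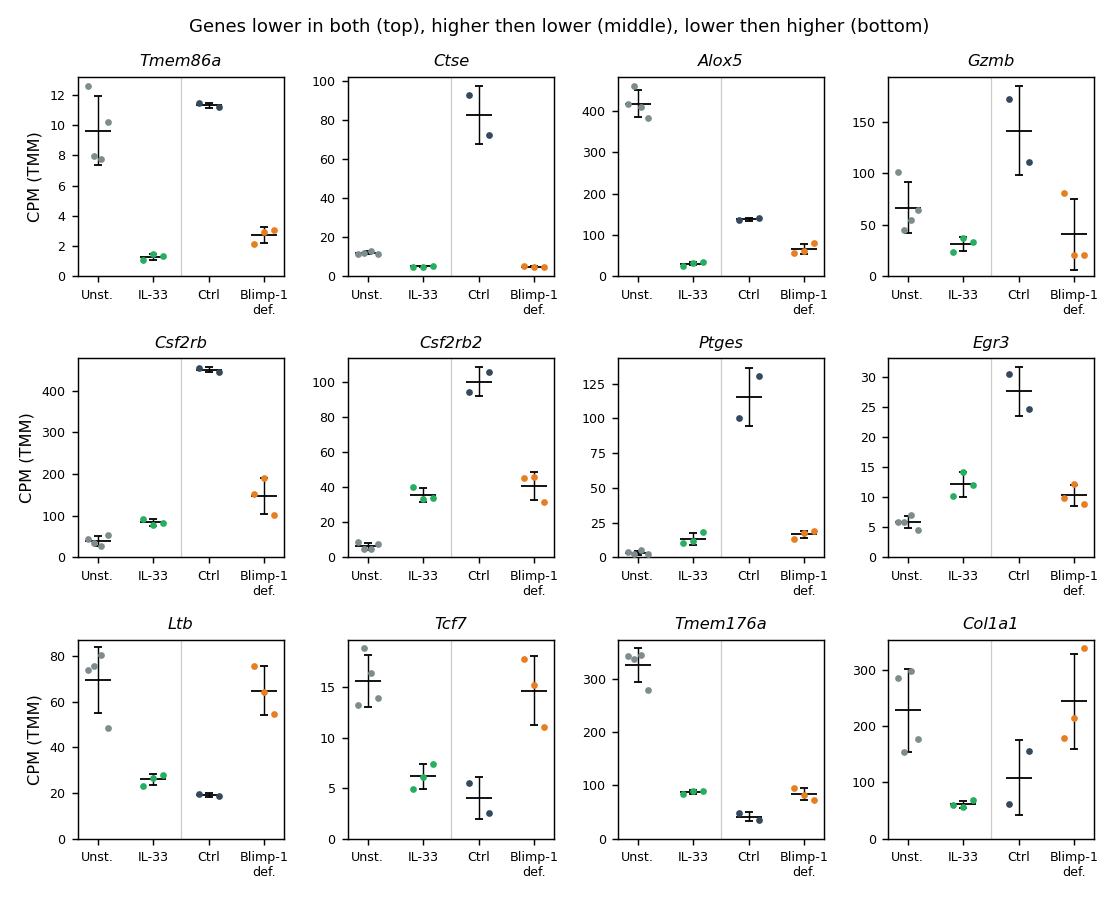
CPM in each of the 12 libraries with the mean and SD of each group, for 4 genes lower in both (top row), 4 higher with IL-33 and lower with Blimp-1 loss (middle row) and 4 lower with IL-33 and higher with Blimp-1 loss (bottom row). Libraries of the compared groups lie apart in every panel, and the scatter is widest for Gzmb and Col1a1.

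The 44 genes lower with IL-33 and higher with Blimp-1 loss were of several kinds. Genes picked out after their values were seen, as known from lymphocytes, were Tcf7, the transcription factor TCF-1 of early ILCs and memory T cells, Txk, Prkcq, Tcrg-C1, Clec2i, P2rx7, Ltb and Tmem176a. Tcf7 read 13.2, 18.8, 16.4 and 13.95 CPM in unstimulated and 4.94, 6.15 and 7.42 in stimulated ILC2s. It read 5.46 and 2.52 CPM in Control and 17.7, 15.2 and 10.99 in deficient ILC2s. It fell by 1.34 ± 0.17 and rose by 1.88 ± 0.34 (adjusted p = 9.88e-05 and 0.0148). Tcf7 is on a list of 26 shared genes of quiescence and lymphoid memory, which had 3 called higher and 16 lower with IL-33, and 7 higher and 4 lower with Blimp-1 loss, with medians of -0.44 and 0.19.

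Clec2i, a C-type lectin-like ligand of NKR-P1 receptors, had the largest rise with Blimp-1 loss of any member. It read 1.13 and 0.438 CPM in Control and 13.6, 11.8 and 6.95 in deficient ILC2s (3.79 ± 0.46, adjusted p = 0.00378), and fell from 8.88, 12.5, 12.4 and 11.6 CPM to 1.48, 1.89 and 1.67 with IL-33. Tcrg-C1, a constant segment of the T cell receptor gamma locus, fell from 349.8, 354, 352 and 325 CPM to 19.8, 23.8 and 30.1 with IL-33 (-3.81 ± 0.13, adjusted p = 2.65e-08). It rose from 19.1 and 17.4 CPM to 64.6, 49.8 and 58.6 without Blimp-1 (1.66 ± 0.12, adjusted p = 0.000788). Of the distinct 75-base stretches in its transcripts, 17.7% also occur in other genes, most often Tcrg-C3. Prkcq and Txk, kinases of antigen receptor signalling, fell by 2.45 and 1.91 with IL-33 and rose by 1.10 and 1.56 without Blimp-1. P2rx7, the ATP-gated channel, fell by 1.27 and rose by 1.52. Eps8, an actin regulator, went from 12.5 and 11.6 CPM to 61.3, 66.9 and 56.2 without Blimp-1 (2.35 ± 0.10, adjusted p = 0.000134) and from 29.6, 31.3, 30.0 and 24.1 to 9.28, 10.3 and 7.71 with IL-33. Etv3, an ETS family repressor, had tight values of 36.0 and 37.7 CPM in Control and 82.9, 86.4 and 89.9 in deficient ILC2s (1.23 ± 0.06, adjusted p = 0.000241) and fell by 1.49 with IL-33. Tmem176a, a cation channel of ILC3s and myeloid cells, read 343, 337, 345 and 279.7 CPM in unstimulated and 83.4, 89.6 and 89.1 in stimulated ILC2s, and 47.4 and 35.3 in Control and 95.3, 81.3 and 73.1 in deficient ILC2s. It fell by 1.90 and rose by 1.01 (adjusted p = 8.31e-08 and 0.00762), with no overlap of groups. Of 6 shared ILC3-linked genes, which include Ltb and Tmem176a, 5 were called lower with IL-33 and 4 higher with Blimp-1 loss, with none called the other way (medians -1.03 and 0.95). Other genes of the class outside the matrix group were Bicdl1, Mctp1, Treml2, Sema4f, St6gal1, Tlr1, Fa2h, 2510009E07Rik, F3, Tuba8 and Rgs18, with folds of -3.06 to -1.03 and 1.05 to 2.02. Of these F3, the tissue factor gene, passed with Blimp-1 loss (adjusted p = 0.00796) but not with IL-33 (adjusted p = 0.0684), where its groups overlapped.

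Summed over the 13 T cell markers, the level was 726 to 851 TPM in unstimulated, 207 to 224 in IL-33 stimulated, 148 to 186 in Control and 203 to 229.9 in Blimp-1-deficient libraries. For 11 mast cell and basophil markers, the sum was 137 to 180.4 TPM in unstimulated, 53.5 to 58.1 in IL-33 stimulated, 66.1 to 71.4 in Control and 76.8 to 95.7 in Blimp-1-deficient libraries. Both sums moved in the same directions as these genes, without overlap of the groups, and their part in the result was not tested. Of the 5 T cell markers among the shared genes, 4 were called lower with IL-33 and 1 higher with Blimp-1 loss. Only 1 of the 11 mast cell and basophil markers exceeded 1 TPM in every library used. The 1 among the shared genes was called lower with IL-33 and was not called with Blimp-1 loss (-0.87 and 0.33). Sums of 16 myeloid markers overlapped in both experiments. They were 235 to 509 TPM in unstimulated, 83.5 to 239 in IL-33 stimulated, 87.1 to 368 in Control and 106 to 329 in Blimp-1-deficient libraries.

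Once the values had been seen, 20 of these 44 genes were recognised as genes of matrix, contractile cells or fibroblasts, among them collagens (Col1a1, Col1a2, Col3a1, Col5a1, Col12a1), Mgp, Bgn, Fbn1, Fbln2, Loxl1, Adamts2, Svep1, Pdgfrb, Acta2 and Myl9. Mgp, an inhibitor of calcification, read 18.7, 5.11, 19.1 and 12.5 CPM in unstimulated and 2.76, 0.878 and 2.91 in stimulated ILC2s. It read 3.94 and 3.74 CPM in Control and 8.51, 14.2 and 19.3 in deficient ILC2s. It fell by 2.66 ± 0.51 and rose by 1.87 ± 0.32 (adjusted p = 0.00138 and 0.0121), the latter not passing without Control 1 or 3 (adjusted p = 0.0773 and 0.0625). Adamts2, a procollagen protease, fell by 1.83 and rose by 1.48 (adjusted p = 0.00114 and 0.0238). Its Blimp-1 call was lost without Control 1, Control 3 or Blimp-1-deficient 2 (adjusted p = 0.141, 0.0501 and 0.0529). Svep1, a cell adhesion protein of the matrix, fell by 1.80 and rose by 1.45 (adjusted p = 0.00147 and 0.00461). Col1a1 read 286, 154, 298 and 177 CPM in unstimulated, 59.99, 55.9 and 67.9 in stimulated, 61.2 and 155 in Control and 178, 215 and 339 in deficient ILC2s. With IL-33 stimulated 3 included its IL-33 fold was -1.12 (adjusted p = 0.127). Its Controls differed by more than 2-fold, and its fold with Blimp-1 loss, 1.17 ± 0.41, did not pass (adjusted p = 0.103), nor did those of Col1a2 and Col3a1 (adjusted p = 0.0928 and 0.0993). With the replicate number as a block, Col1a1, Col1a2 and Col3a1 passed (1.33, 1.35 and 1.32), but same-numbered libraries came from separate mice. Without Control 3 the folds of Col1a1 and Col1a2 were 1.99 and 2.02 and passed (adjusted p = 0.0344 and 0.0327), and without Control 1 they were 0.65 and 0.69 and did not (adjusted p = 0.35 and 0.315).

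These 20 genes also varied together within groups. Unstimulated 2 was the lowest unstimulated library for 19 of them, and Control 1 was below Control 3 for 18. The remaining 24 genes of the class gave 5 and 10. In the library left out, Control 2, all 20 stood above both other Controls and 19 stood above every library used, for example 2170.0 CPM for Col1a1. The median SE of the Blimp-1 fold was 0.29 for the 20 genes and 0.14 for the 24, while the median folds were alike (1.22 and 1.28). Of 14 epithelial and stromal markers, 4 are themselves members (Col1a1, Col1a2, Col3a1 and Pecam1), so only the other 10 were summed. Their level was 124.9 to 284 TPM in unstimulated, 22.6 to 26.6 in IL-33 stimulated, 46.9 to 49.9 in Control and 60.9 to 101.9 in Blimp-1-deficient libraries. Epcam gave 91.2 to 112.1 TPM of the unstimulated sums, and Scgb1a1, of airway club cells, read up to 137.7 TPM in unstimulated libraries and no more than 0.652 TPM in the others. The epithelial marker Epcam fell with IL-33 by 4.45 (adjusted p = 3.78e-08) and was at -0.09 with Blimp-1 loss (adjusted p = 0.675). Other epithelial markers differed from it: Krt8 read 0.301 to 1.33 TPM in Control and 3.67 to 15.5 in Blimp-1-deficient libraries. For Krt18 these ranges were 2.13 to 2.83 and 3.44 to 13.3 TPM, and Cdh1 was at 0.63 with Blimp-1 loss (adjusted p = 0.543). The fibroblast marker Pdgfra was at -0.93 and 1.45 (adjusted p = 0.0297 and 0.0256) and Dcn at 0.02 and 1.33 (adjusted p = 0.967 and 0.00478). The sum over these 10 markers was lower after IL-33 and higher without Blimp-1, as this class was. Within groups it did not follow the 20 genes. It was highest in unstimulated 2, at 284 TPM, and read 49.9 TPM in Control 1 and 46.9 in Control 3. In Blimp-1-deficient 1, 2 and 3 it read 101.9, 69.7 and 60.9 TPM, while Col1a1 read 178, 215 and 339 CPM. The part of these markers in the result was not tested.

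**Figure D5:**
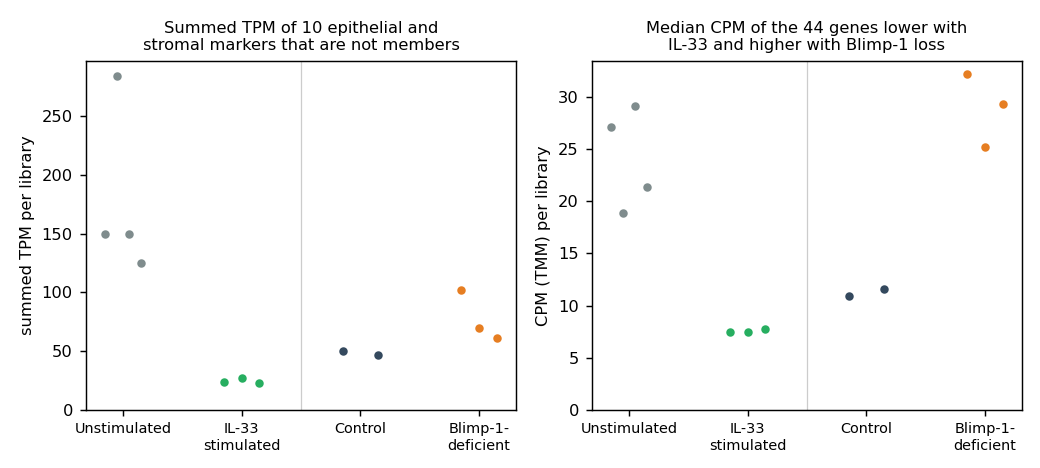
Each point is a library; the left panel gives the summed TPM of the 10 epithelial and stromal markers that are not members and the right panel the median CPM of the 44 genes lower with IL-33 and higher with Blimp-1 loss, which the rule fixed. The left sum is 22.6 to 26.6 TPM after IL-33 against 124.9 to 284, and 60.9 to 101.9 TPM without Blimp-1 against 46.9 to 49.9.

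The libraries left out of the folds were set beside the groups they would be compared with. Those groups, unstimulated and Blimp-1-deficient, had also chosen the members, so part of the likeness is fixed, and the shares over all genes are a background and not the value without any change. IL-33 stimulated 3 stood on the members' side of all unstimulated libraries for 45 of 47 genes higher in both, 9 of 10 lower in both, 7 of 8 higher with IL-33 and lower with Blimp-1 loss, and 34 of 44 lower with IL-33 and higher with Blimp-1 loss. Over all shared genes it stood above them for 32.8% and below them for 53.2%. All deficient libraries stood on the members' side of Control 2 for 45, 9, 8 and 23 genes, in the same order. Over all shared genes they stood above it for 56.7% and below it for 31.5%. Of the 23, none was among the 20 matrix, contractile or fibroblast genes. With Control 2 in the fit, 43, 8, 6 and 22 members kept their class. The rule then gave 130 members, of which 30 were called in both fits, against 96 of the 109 without Control 2. Of 58 genes followed singly, 30 lost the Blimp-1 call in that fit, 4 reversed and 24 did not change side. Among those that lost it were Il9 (1.71, adjusted p = 0.223), Csf2 (1.55, 0.196), Cxcl10 (2.68, 0.138) and Tcf7 (1.52, 0.223), of which the first 3 had larger folds than without Control 2. Among those that kept it were Lif (3.18, adjusted p = 0.00441), Tnf (2.17, 0.00441), Ltb (1.82, 0.0122), Cd34 (3.83, 0.0198) and Csf2rb (-1.65, 0.0404).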

How the data were processed

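RNA was measured in bulk from sorted lung ILC2s of individual mice, as SMART-seq v4 and Nextera XT libraries. The authors deposited raw counts per gene (Subread, strand setting not given in the sources used here) and TPM values made from them, as separate tables for each experiment. The study's methods name cutadapt, HISAT2 and GRCm38, and the submitters' processing notes list mm10, Bowtie2, Subread and DESeq2. Groups were taken from the sample labels, and separate mice were the replicates.

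The counts were tested within each experiment by edgeR 4.0.16 (R 4.3.3), with TMM scaling, its expression filter and the quasi-likelihood test. Adjustment was by Benjamini-Hochberg across the 15733 genes tested with IL-33 or the 17968 tested with Blimp-1 loss. CPM values were scaled by TMM. Members needed a mean of 5 CPM in both experiments and a log2 fold change of 1 or more in either direction in both. Genes named were the 8 with the largest smaller-of-both folds in each class, members on the gene lists, Prdm1, and genes next to the threshold. Others were named after their values were seen, among them the remaining members of each class and the matrix genes. So were Tnfrsf8, as the partner of Tnfsf8, and Cdh5, Epcam, Krt8, Krt18, Cdh1, Pdgfra and Dcn. The members and lists were chosen with earlier results of these data known. 1 member lower in both is not reported here. Error values are SE of the fold or SD of the level.

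Alternatives were RLE factors, library size alone, DESeq2 1.42.0, limma 3.58.1 on log2(TPM + 1) and log2(TPM + 0.1), a replicate block, other CPM minimums and fold thresholds, and inclusion or omission of single libraries. The tests were run on simulated counts with known changes before use. Same-numbered libraries came from separate mice and were not treated as pairs.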

Additional observations from a re-analysis of the deposited data

Results flagged for a closer look

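In 59 groups of 4 libraries, 7 held a library whose gap to its nearest neighbour was, relative to the group's range, above the critical value of Dixon's test. Chance gives about 1 in 20 for independent groups. The genes here were read in the same 4 libraries, so the count is not set against that rate. Among the IL-33 stimulated libraries, total counts were lowest in IL-33 stimulated 3, at 10470125. The other 6 were among unstimulated libraries. Cd34 was highest in unstimulated 3, at 7.198 CPM against 4.36 in the next. Hk2 was lowest in unstimulated 2, at 81.1 CPM against 93.5. Tcrg-C1 and Tmem176a were both lowest in unstimulated 4, at 325 CPM against 349.8 and at 279.7 CPM against 337. Csn1s1 read 0.126 CPM in unstimulated 4 and Il9 read 0.0697 CPM in unstimulated 1, with the other unstimulated libraries at 0. For these 2 genes the zeros make the gap equal to the range whatever the value, so their flags carry no information. Each of these 6 values remained on the same side of all IL-33 stimulated libraries used as the rest of its group.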

How the results depend on the processing

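The depth was lower in the stimulation experiment, where 3 counts correspond to 0.0858 to 0.127 CPM, than in the Blimp-1 experiment (0.0310 to 0.0387 CPM). With 2 Controls, the Blimp-1 folds rest on few mice. Pearson's r (-0.0845) was -0.00623 with all 14 libraries, -0.0149 with IL-33 stimulated 3, 0.101 with Control 2, -0.122 where every group had to reach 5 CPM, and -0.134 to -0.0258 with single libraries left out. Spearman's rho (-0.251) was -0.0843, -0.189 and -0.0341 under the first 3 of these, -0.296 to -0.160 with single libraries left out, and -0.194 as a partial correlation, which was chosen after seeing the data. The counts below are of genes higher in both (47), lower in both (10), higher with IL-33 and lower with Blimp-1 loss (8), lower with IL-33 and higher with Blimp-1 loss (44), and called in both fits (96). A minimum of 1 CPM gave 83, 31, 16, 112 and 203, no minimum gave 132, 54, 31, 257 and 269, and 5 CPM in every group gave 28, 5, 6, 27 and 57. A minimum of 10 CPM gave 5 lower in both and 28 in the fourth class. A 1.5-fold threshold gave 116, 57, 48, 214 and 361, and a 4-fold threshold 6, 1, 0, 1 and 8. All 14 libraries gave 28 lower in both, 39 and 23 in the opposite classes and 27 called, Control 2 alone gave 41 lower in both, 28 in the fourth class and 30 called, and IL-33 stimulated 3 alone gave 13 in the third class. Library size alone gave 5 and 69 in the opposite classes and moved the median IL-33 fold of all shared genes from 0.04 to -0.14, TPM with either pseudocount gave 3 in the third class, and with a pseudocount of 0.1 it gave 71 in the fourth. Without the 20 matrix genes, a choice made after seeing the data, 24 genes of the fourth class remained. Single libraries left out gave 42 to 53, 8 to 11, 7 to 10, 37 to 62 and 82 to 102. The genes behind these counts changed too. Of the 44 genes in the fourth class, 29 kept their class without Control 1 and 32 without Blimp-1-deficient 3. In 24 of the settings compared for this, 44 of the 109 members kept their class throughout. These leave out 10 CPM, 5 CPM in every group and the 1.5-fold and 4-fold thresholds, where 74, 66, 109 and 8 members kept it. They include the minimum of 1 CPM and no minimum, which cannot remove a member. Including Control 2, alone or with IL-33 stimulated 3, reversed the Blimp-1 folds of Adamts2 (-0.16), Col1a1 (-2.02), Col1a2 (-1.92) and Col3a1 (-1.74), and Cmpk2 was at -0.25 with IL-33 without IL-33 stimulated 2 and at 1.70 without IL-33 stimulated 4. Over 58 genes followed singly (those ranked highest in each class, members on a list, and Prdm1; not the other genes named), 1598 of 1740 alternative values kept direction and side of the threshold, 120 no longer passed, 13 newly passed and 9 reversed. The cause was not tested. Replicate numbers did not pair the libraries, which came from separate mice. Correlations of same-numbered deviations were -0.054, 0.089 and -0.055 with IL-33, and differently numbered ones ran from -0.114 to 0.152. In the Blimp-1 experiment they were 0.057 and 0.098, against -0.098 to 0.039. There the deviations of the 2 Controls are equal and opposite, so these values cannot show whether numbers paired the libraries. A fit with the replicate number as a block gave 115 members, of which 99 kept their class.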

Other observations

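Some of the lists that the comparisons above do not describe are given here. Their counts of members are too small to read against the 109 members of 10022 shared genes. On the list of NF-kB and AP-1 members and feedback genes, 23 of 30 shared genes were called higher and 3 lower with IL-33. With Blimp-1 loss 11 were called higher and 2 lower (medians 1.10 and 0.22). Of 45 shared genes of cell cycle and DNA replication, 9 were called higher and 25 lower with IL-33 by edgeR's quasi-likelihood test, and 2 higher and none lower with Blimp-1 loss. The list's median log2 fold changes were -0.19 and 0.00.

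All 6 shared genes of MHC class II and presentation were called higher with Blimp-1 loss, against 2 higher and 1 lower with IL-33 (medians 0.66 and -0.13), with Cd74 among them. Of 15 shared checkpoint and costimulation genes, 8 were called higher and 1 lower with Blimp-1 loss, against 6 higher and 7 lower with IL-33 (medians 0.53 and -0.17), with Cd200 among them. Beside these stand 36.6% and 31.3% of all shared genes called higher and lower with IL-33, and 8.13% and 8.61% with Blimp-1 loss. The difference between the experiments was not tested for these lists.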
